A study of Felis catus with 15 samples.

Results

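The baseline described here is fresh epididymal corpus from domestic cats (Felis catus), read from the 5 libraries of the series that are labelled fresh. The series holds 15 RNA-seq libraries of corpus tissue. The other 10, from explants kept in culture with or without added extracellular vesicles, were not used here. The 5 fresh libraries form 1 group of untreated tissue and are named fresh 1 to fresh 5 after the replicate numbers in the labels. The labels carry the code D0 for them. The labels give no breed, age or number of animals. They also do not say where along the corpus a piece was cut, how soon it was preserved, or whether each library is a separate animal, so every SD measures the spread between these libraries. With 1 group there is no comparison of conditions and no test: all values are descriptions, and ± stands for the SD of the 5 libraries.

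The epididymis is the long coiled duct that joins the testis to the vas deferens, and sperm gain motility and the ability to fertilise while they pass through its caput, corpus and cauda. The wall of the duct is a pseudostratified epithelium. Principal cells secrete and absorb proteins, clear and narrow cells pump protons into the lumen, and basal cells sit on the basement membrane. Around the duct lie smooth muscle, fibroblasts, vessels and resident immune cells. The secreted proteins include small sperm-coating proteins, ribonuclease-like proteins without enzyme activity, beta-defensins and protease inhibitors, many of which occur in large gene families and differ from segment to segment.

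The deposited table held raw counts for 38995 genes, and the fresh libraries summed to 21972071, 24841100, 21679805, 17751507 and 19601281 counts. Levels are given in CPM, the count of a gene scaled to a library total of 1000000 counts. They are not corrected for transcript length, so a level says how much of the library a gene took and not how many transcripts it had relative to another gene. In the shallowest library a gene at 1 CPM rested on 18 counts (95% Wilson interval 0.641 to 1.60 CPM) and a gene at 100 CPM on 1775 counts (95.4 to 104.8 CPM), and these intervals cover counting error only. Pairs of libraries differed by a root mean square of 0.345 (fresh 3 and fresh 5) to 0.437 (fresh 2 and fresh 4) on the log2 scale over genes with a mean of 5 log2 CPM or more. By their values fresh 4 stood apart in immediate early genes and fresh 3 in 46 genes. Other libraries departed in sets of genes too. Fresh 2 was the lowest library for 23 of 27 interferon-stimulated genes and the highest for 68 of 84 ribosomal protein genes. The 46 came from a rule chosen after the values were seen. Over genes with a mean of 5 log2 CPM or more, fresh 3 belonged to the closest pair. A gene high in 1 library alone can miss that level, as PDZK1 did at a mean of 0.945 log2 CPM. The distance between libraries therefore says little about the 46 genes. The spread of the lists that these libraries bear on is also given without the library concerned.

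A gene counted as detected at 1 CPM or more in all 5 libraries, and 14182 genes met this. Of these, 13101 are protein-coding, 956 long noncoding RNA genes, 79 pseudogenes and 13 ribosomal RNA genes. Another 13191 genes had a count of 0 in all 5 libraries, which allows up to 0.0283 CPM over the pooled counts. Counts were concentrated in few genes. The 10 highest genes of a library took 12.4% ± 1.05 (SD, n = 5) of its counts, the 100 highest 29.8% ± 1.33 and the 1000 highest 55.5% ± 1.08, and 700 ± 54.6 genes held 50% of the counts. At 1000 CPM or more in all 5 libraries stood 54 genes, and 1516 stood at 100 CPM or more. The ranking was shared: leaving out mitochondrially encoded genes, 8 genes were among the 10 highest of every library, of 15 that were so in any, and 70 among the 100 highest of every library, of 139 in any.

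**Figure D1:**
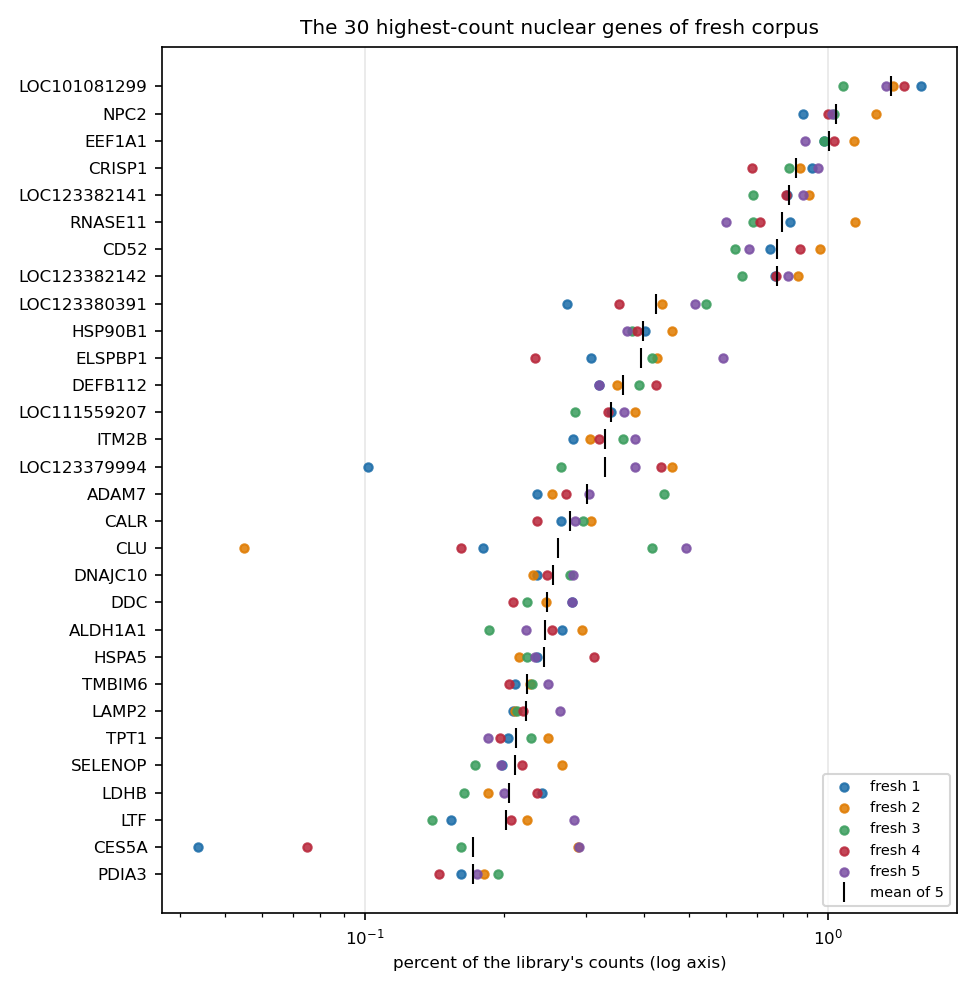
Share of counts of the 30 highest genes of fresh corpus that are not mitochondrially encoded. Each point is 1 library, the bar is the mean of 5, and the axis is the percent of the library's counts on a log scale; CLU and CES5A are spread widest, and LOC123379994 is lowest in fresh 1.

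Genes for secreted and sperm-binding proteins were prominent at the top of the nuclear genes. The highest nuclear gene was LOC101081299, a protein-coding gene without a symbol of its own, at 1.58, 1.38, 1.07, 1.45 and 1.33% of counts in fresh 1 to fresh 5. NPC2, which binds cholesterol and is secreted by the duct, took 0.884, 1.26, 1.03, 1.00 and 1.02%, highest in fresh 2. CRISP1, which coats sperm, took 0.920, 0.868, 0.824, 0.685 and 0.951%, with fresh 4 the lowest. RNASE11, a ribonuclease-like secreted protein, ranged over 0.827, 1.14, 0.686, 0.711 and 0.600%, and fresh 2 stood above the other 4 libraries. CD52, a small lipid-anchored glycoprotein that epididymal epithelium passes to sperm, took 0.750, 0.959, 0.630, 0.870 and 0.673%. ELSPBP1, a sperm-binding protein, took 0.307, 0.427, 0.417, 0.233 and 0.591% and ADAM7, a membrane protein handed to sperm, 0.235, 0.254, 0.441, 0.271 and 0.304%. Fresh 5 was highest for ELSPBP1 and fresh 3 for ADAM7.

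The 30 highest nuclear genes held 13.4% of counts. Beside the secretory genes they held the translation factor EEF1A1 at 1.00% ± 0.0909, the chaperones of the endoplasmic reticulum HSP90B1 at 0.399% ± 0.0363, CALR at 0.277% ± 0.0281 and HSPA5 at 0.244% ± 0.0391, and the reductase DNAJC10 at 0.255% ± 0.0237 of counts. Metabolic enzymes among them were DDC, which makes dopamine and serotonin, at 0.248% ± 0.0321, the retinal dehydrogenase ALDH1A1 at 0.244% ± 0.0420 and the lactate dehydrogenase subunit LDHB at 0.205% ± 0.0330. The selenium carrier SELENOP took 0.210% ± 0.0354, the iron-binding protein LTF 0.201% ± 0.0578 and the lysosomal membrane protein LAMP2 0.223% ± 0.0232. ITM2B, TMBIM6 and TPT1, membrane and growth-associated proteins found in most tissues, took 0.330% ± 0.0410, 0.224% ± 0.0171 and 0.212% ± 0.0260. Ribosomal RNA genes, 3 in number, also belonged to the 30: LOC123382141 at 0.820% ± 0.0848, LOC123382142 at 0.774% ± 0.0786 and LOC111559207 at 0.340% ± 0.0372. How the authors divided reads between such copies is not stated. The protein-coding LOC123380391 took 0.425% ± 0.113, and LOC123379994 took 0.102, 0.461, 0.265, 0.436 and 0.383%, with fresh 1 below the other 4. Of the 100 highest nuclear genes, 55 belonged to a gene list used here: 16 to epididymal secretory proteins, 11 to folding in the endoplasmic reticulum, 11 to ribosomal proteins, 4 to translation factors and 3 to lysosomes. Another 13 had no symbol of their own.

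Several secretory families were present as more than 1 expressed member. Among 18 genes named as beta-defensins, antimicrobial peptides of which many coat sperm, 10 were detected. DEFB112, whose RefSeq gene type is misc_RNA, stood at 3197, 3505, 3901, 4248 and 3199.6 CPM in fresh 1 to fresh 5, DEFB129 at 494, 878, 826, 695 and 714 CPM and DEFB136 at 117, 256, 367, 966 and 265 CPM. Both DEFB112 and DEFB136 were highest in fresh 4. Of 7 RNASE genes 4 were detected, RNASE11 with 7927 ± 2102 CPM, RNASE12 with 759 ± 113, RNASE4 with 473 ± 131 and RNASE10 with 70.4 ± 4.95. RNASE10, a sperm-maturation factor of the proximal duct in rodents, was nearly level across libraries, at 62.2 to 74.4 CPM. Of 9 WFDC genes, which encode whey acidic protein domain inhibitors, 8 were detected. WFDC9 stood at 1277, 1160.4, 1925, 875 and 706 CPM and WFDC11 at 670.2, 2265, 256, 668 and 711 CPM. Fresh 3 was the highest of 5 for WFDC9 and the lowest for WFDC11, and fresh 2 was the highest for WFDC11. WFDC2, first described from human epididymis, was low at 8.69, 4.67, 4.70, 3.72 and 3.52 CPM.

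PATE3, a small cysteine-rich secreted protein, stood at 1627, 1706, 952, 1498 and 954 CPM and its relative PATE1 at 555, 148, 629, 351 and 659 CPM. Fresh 2 was the highest library for PATE3 and the lowest for PATE1. CES5A, a secreted carboxylesterase-like protein known as cauxin in the cat, stood at 437, 2879, 1614, 750.1 and 2893 CPM. Fresh 2 and fresh 5 lay together at the top and fresh 1 lowest, 6.61-fold apart from end to end. Its relative CES1 was at 1979.5, 1491, 1206, 1362 and 1354 CPM, highest in fresh 1. The sperm-binding protein BSPH1 had 307 ± 81.5 CPM and EDDM3B, first described from human epididymis, 505 ± 61.7 CPM. Of the whole list of 67 epididymal secretory proteins, 50 were detected and 5 (LCN8, CST8, CST11, SERPINA5 and MAN2B2) had 0 counts in all 5 libraries. The names of another 20 listed proteins, LCN5, SPAG11A and DEFB126 among them, matched no gene symbol and were not looked up further. The members of these families named here, other than those of the 30 highest, were chosen after their values were seen.

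**Figure D2:**
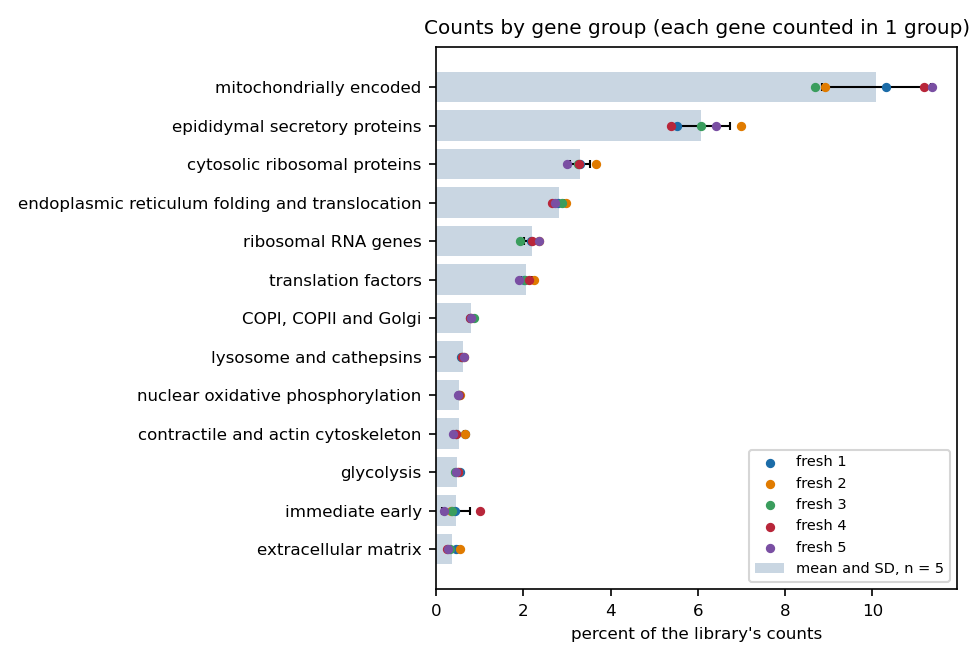
Percent of counts taken by gene groups in fresh corpus, each gene counted in 1 group only. Bars are means and whiskers SDs of 5 libraries, and points are libraries; among the lists, mitochondrially encoded genes (10.1%) and epididymal secretory proteins (6.08%) take the largest shares, and immediate early genes differ most between libraries for their size.

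Counted so that each gene fell in 1 group, the 13 mitochondrially encoded genes, which code for subunits of the respiratory chain and ATP synthase, took 10.3, 8.91, 8.69, 11.2 and 11.4% of counts, with fresh 2 and fresh 3 below the other 3. Epididymal secretory proteins took 5.53, 6.99, 6.08, 5.37 and 6.42%, highest in fresh 2. Cytosolic ribosomal proteins took 3.30% ± 0.237 and translation factors 2.06% ± 0.124. The protein export machinery was among the larger groups. Chaperones, disulfide isomerases and translocation subunits of the endoplasmic reticulum took 2.81% ± 0.126, COPI, COPII and Golgi genes 0.803% ± 0.0346 and lysosomal genes in no earlier group 0.603% ± 0.0281. All 53 endoplasmic reticulum genes and all 35 coat and Golgi genes of the lists were detected in all 5 libraries. Ribosomal RNA genes took 2.20% ± 0.181, nuclear genes of oxidative phosphorylation 0.522% ± 0.0160 and glycolysis genes 0.481% ± 0.0407.

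Contractile, actin and matrix groups were smaller. The contractile and actin list is not a measure of muscle alone. It summed to 5158 ± 1275 CPM, against 1667 ± 726 CPM for the smooth muscle markers. Contractile and actin genes took 0.649, 0.654, 0.453, 0.446 and 0.377% and extracellular matrix genes 0.457, 0.555, 0.309, 0.256 and 0.277%, and in both groups fresh 1 and fresh 2 lay above fresh 3, fresh 4 and fresh 5. Immediate early genes took 0.429, 0.340, 0.359, 1.00 and 0.166%, with fresh 4 highest and fresh 5 lowest. Genes of the other lists took 4.24% ± 0.199, genes without a symbol outside the lists 6.37% ± 0.304, and the 16154 genes with a symbol that no list held 59.1% ± 1.06. By RefSeq biotype, protein-coding genes took 96.0% ± 0.100 of counts and long noncoding RNA genes 1.20% ± 0.207, with fresh 3 highest at 1.55%.

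**Figure D3:**
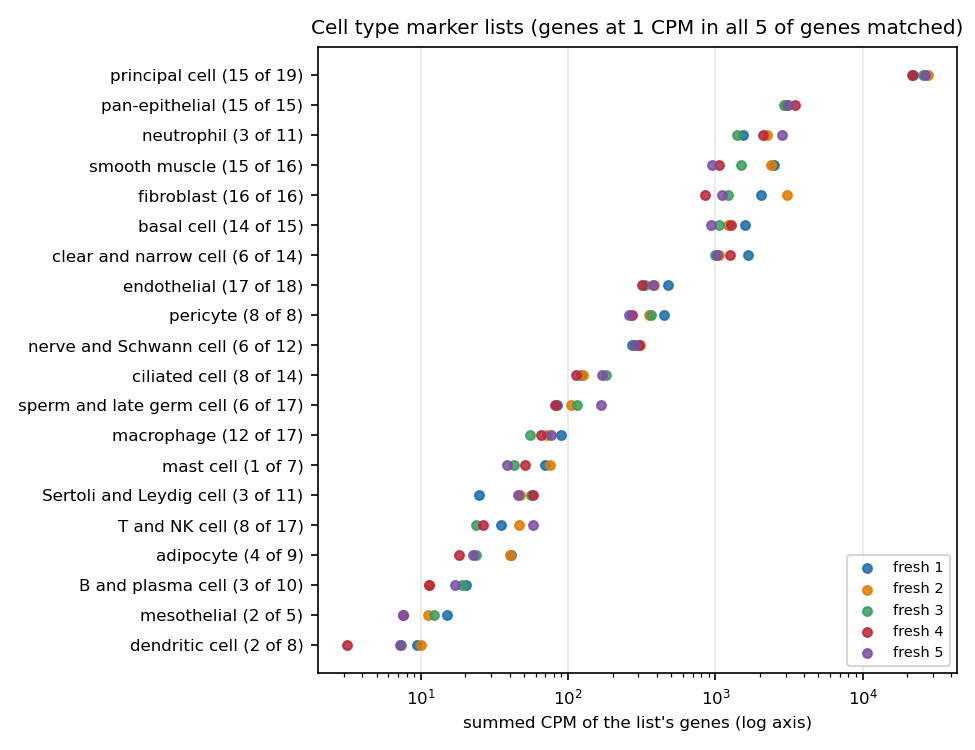
Summed CPM of cell type marker lists in the 5 fresh libraries, on a log axis, with the number of markers detected of those matched. Principal cell and general epithelial lists stand highest; the sum of the neutrophil list is nearly all LTF, and the erythroid list, at or near 0, is not drawn.

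The epithelial identity of the tissue was checked on marker lists. Of 15 general epithelial markers all were detected, with summed levels of 2979, 2992, 2922, 3453 and 3114 CPM. The adhesion molecule EPCAM stood at 562, 535, 489, 613 and 627 CPM, and the simple-epithelium keratins KRT8 and KRT18 at 414 ± 49.2 and 306 ± 22.2. Of 19 principal cell markers 15 were detected and their sum was 21869.9, 27722, 25665, 21432 and 26670.4 CPM, most of it from NPC2 and CRISP1. Markers that are not secreted were lower: the peptidase MME stood at 287, 279.8, 264, 273 and 319.9 CPM, the water and glycerol channel AQP9 at 175, 201, 211, 210.2 and 239.5, and the endocytic receptors LRP2 and CUBN at 162 ± 31.6 and 89.1 ± 46.8. Some principal cell markers of other species were near absent. SLC13A2, a citrate transporter, had 0 counts, the sodium-proton exchanger SLC9A3 had 7 counts over all libraries, and the peptidase ANPEP stood at 0.319 to 1.98 CPM. The chloride channel CFTR was low and even, at 16.3, 13.8, 15.5, 14.1 and 16.1 CPM.

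Of the basal cell markers 14 of 15 were detected, with sums of 1589, 1213, 1055, 1283 and 935 CPM. The linker DST stood at 641, 362, 368, 440.4 and 388 CPM and KRT5, a basal keratin, at 346, 322, 207, 261 and 136 CPM, both highest in fresh 1. TP63, the transcription factor that marks basal cells, stood at 76.0, 72.3, 67.5, 43.1 and 58.7 CPM, with fresh 4 the lowest. Clear and narrow cell markers need a distinction. The list summed to 1663, 1064, 999.3, 1264 and 1024 CPM, but 3 of its 14 genes, the carbonic anhydrase CA12, the proton pump subunit ATP6V1C2 and the anion transporter SLC26A7, carried most of it, at 612 ± 179, 332 ± 85.9 and 203 ± 70.8 CPM. The markers that define the cell were low. FOXI1, its master transcription factor, stood at 0.910, 2.70, 6.04, 4.00 and 5.51 CPM, the pump subunit ATP6V1B1 at 0.455, 3.54, 4.24, 4.73 and 7.86 CPM and ATP6V1G3 at 0.637, 1.49, 4.57, 4.11 and 3.93 CPM. For all 3, fresh 1 was the lowest library, as it was for 10 of the 14 genes of the list, while CA12, ATP6V1C2 and SLC26A7 were highest there. In whole tissue, fewer cells of a type and less RNA per cell cannot be told apart, here and in every list below. Counts of genes highest or lowest in a library are given without the share over all genes, which was not taken. Among 282 solute carrier genes with more than 3 counts, fresh 1 to fresh 5 were the highest library for 54, 56, 72, 47 and 53. They were the lowest for 50, 47, 46, 75 and 64.

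Ciliated cell markers, listed because ciliated cells line the efferent ducts next to the epididymis, were low. FOXJ1, their master regulator, stood at 14.8, 13.4, 7.61, 21.4 and 15.5 CPM, the structural proteins CFAP43 and RSPH1 at 67.3 ± 18.6 and 16.2 ± 3.04, SNTN had 0 counts and MCIDAS 2 counts in all. Of 11 testis somatic markers 3 were detected, and the list summed to 24.7, 47.3, 55.5, 57.6 and 45.4 CPM. INSL3, LHCGR and FSHR had 0 counts, STAR 4 and CYP17A1 2 counts over all libraries. Most of the sum came from CYP11A1, the side-chain cleavage enzyme of steroid synthesis. It stood at 15.7, 38.2, 49.7, 43.9 and 38.2 CPM with fresh 1 the lowest. Sperm and late germ cell markers summed to 83.6, 104, 114, 81.7 and 167 CPM, with 6 of 17 detected. Most of this sum came from genes of the list other than the 3 named next. PRM2, a sperm protamine, stood at 0.410, 3.99, 3.92, 1.07 and 14.4 CPM, ODF1, of the outer dense fibres of the tail, at 0.683, 5.35, 3.00, 0.901 and 13.2 CPM and TNP1, a transition protein, at 0.137, 1.81, 3.51, 1.69 and 6.12 CPM. Fresh 5 was the highest library for 14 of 17 listed genes and fresh 1 the lowest for 13. The names PRM1, SMCP and CRISP2 matched no gene in the table.

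In the duct wall, 15 of 16 smooth muscle markers were detected, and they summed to 2485, 2377, 1480.2, 1050.0 and 944 CPM. The myosin MYH11 stood at 638, 654, 343, 214 and 238 CPM and smooth muscle actin ACTA2 at 415, 386, 251, 168 and 161 CPM, and for both fresh 1 and fresh 2 lay above the other 3 libraries. Fibroblast markers were all detected, 16 of 16, with sums of 2034, 3052, 1214, 848 and 1104 CPM. The proteoglycan DCN stood at 491, 920.2, 276, 279.6 and 298 CPM, and the collagen COL1A2 at 343, 475, 226, 77.1 and 168 CPM. Fresh 2 was the highest library for 13 of the 16 genes, and fresh 3 and fresh 4 were the lowest for 7 each. Pericyte markers summed to 447, 356, 367, 271 and 260.2 CPM and endothelial markers to 474, 383, 332, 317 and 375 CPM. PECAM1, an endothelial adhesion molecule, made up a large part at 159, 122, 183, 163 and 202 CPM, against 72.3 ± 30.8 for VWF and 11.5 ± 3.62 for CDH5. Fresh 1 was the highest library for 11 of 18 endothelial markers.

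Immune cell markers were present at low levels. Macrophage markers summed to 89.6, 71.9, 55.2, 65.2 and 76.6 CPM, with 12 of 17 detected: the growth factor receptor CSF1R stood at 17.98, 18.3, 11.6, 10.4 and 13.0 CPM and the complement subunits C1QA and C1QB at 8.97 ± 2.297 and 8.66 ± 1.81. CD68 was at 0 to 0.620 CPM and MARCO at 0 counts. T and NK cell markers summed to 34.8, 46.3, 23.6, 26.4 and 57.8 CPM. CD3E stood at 2.96, 3.18, 1.34, 1.92 and 5.15 CPM and CD8A at 4.60, 5.43, 2.08, 1.52 and 6.43 CPM, and fresh 5 was the highest library for 11 of 17 listed genes while fresh 3 was the lowest for 11. B and plasma cell markers summed to 11.3 to 20.3 CPM, dendritic cell markers to 3.15 to 10.1 CPM and adipocyte markers to 18.1 to 40.6 CPM. The neutrophil list, at 1405 to 2845 CPM, was nearly all LTF, itself an epididymal secretory protein. The antimicrobial CAMP and the protease MMP9 were also detected, at 4.35 to 7.55 and 2.28 to 8.26 CPM, while S100A9 had 0 counts and MPO 3 counts in all. Of mast cell markers only GATA2, which other cells also express, was detected, with CPA3 at 36 counts and HDC at 0. Erythroid markers had at most 7 counts per gene, and the names HBA and HBB matched no symbol. Nerve markers were led by ERBB3, a receptor that epithelium also carries, at 196 ± 22.7 CPM, while the Schwann cell factor SOX10 stood at 0.507 to 2.23 CPM.

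Steroid hormones act on the epididymal epithelium. The estrogen receptor ESR1 stood at 82.1, 90.9, 87.3, 87.8 and 85.05 CPM. Its SD on the log2 scale was 0.0773, beside a median of 0.155 over genes with a mean of 5 log2 CPM or more. The chaperones of steroid receptors FKBP4 and FKBP5 were at 459 ± 27.6 and 193 ± 22.0 CPM. Of the enzymes, SRD5A1, which converts testosterone to dihydrotestosterone, stood at 40.6, 53.4, 48.8, 22.1 and 52.1 CPM, with fresh 4 the lowest. Its isoenzyme SRD5A2 was at 0.306 to 6.92 CPM, and CYP19A1 (aromatase) and HSD17B2 had 0 counts. Other 17-beta-hydroxysteroid dehydrogenases were present, HSD17B4 at 144 ± 26.0, HSD17B10 at 112 ± 10.8 and HSD17B11 at 89.2 ± 7.11 CPM. Among the transcription regulators of the duct, EHF stood at 351, 353, 286, 384 and 357 CPM, PAX8 at 314, 305, 262, 297 and 259 CPM and PAX2 at 229, 216, 207, 224 and 187 CPM, factors of the Wolffian duct lineage in the case of the PAX genes. HOXD8 was at 175 ± 16.4, HOXB6 at 170.4 ± 15.2, EMX2 at 145 ± 10.4 and GATA3 at 142 ± 12.9 CPM. The more posterior HOX genes were low or absent, HOXA11 with 6 and HOXD11 with 13 counts in all, and HOXA13 and HOXD13 with 0.

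The lumicrine pathway carries a testis signal to the duct, where the secreted ligand NELL2 binds the receptor kinase ROS1 and the protease OVCH2 is made in response. ROS1 stood at 48.0, 40.1, 40.3, 79.0 and 24.4 CPM, highest in fresh 4. OVCH2 stood at 37.0, 29.2, 116, 26.0 and 97.2 CPM, and fresh 3 and fresh 5 lay above the other 3 libraries, which did not exceed 37.0 CPM. NELL2 had 39 counts over all libraries. Of the water channels, AQP9 led, AQP1 followed at 86.9, 54.7, 34.0, 42.2 and 57.4 CPM, and AQP2 varied from library to library, at 28.0, 7.97, 4.11, 32.3 and 0.357 CPM. Carriers of bicarbonate and chloride included SLC26A3 at 83.6 ± 9.73 and SLC4A7 at 161 ± 31.7 CPM, beside CA12. Of 25 vacuolar proton pump genes, 21 were detected, among them ATP6V1A, of the catalytic part of the pump, at 104 ± 9.06 CPM. Tight junctions were represented by CLDN8 at 273 ± 51.2, CLDN1 at 143, 132, 212, 128 and 254 and CLDN7 at 159 ± 24.6 CPM.

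All 27 lysosomal genes were detected, among them LAMP2 and PSAP, the precursor of sphingolipid activators, at 1074, 1395, 1158, 1012 and 1305 CPM. PSAP was lowest in fresh 4 and highest in fresh 2. The 34 antioxidant and glutathione genes were all detected as well, with the peroxiredoxin PRDX5 at 454, 556, 454, 553 and 471 CPM and the glutathione transferase GSTP1 at 378, 304, 417, 222 and 206 CPM. SAT1, which acetylates polyamines, stood at 1281, 1024, 1025, 1296 and 1279.6 CPM, well above ODC1, the first enzyme of polyamine synthesis, at 125 ± 19.5 CPM. Of the cholesterol genes other than NPC2, FDFT1, which makes squalene, stood at 591, 713, 649.5, 658 and 637 CPM and the exporter ABCA1 at 176 ± 27.7 CPM.

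Retinoid handling was led by ALDH1A1, which makes retinoic acid, at 2661, 2944, 1852, 2536 and 2223 CPM. The retinoic acid binding protein CRABP1 stood at 49.5, 35.5, 13.5, 44.2 and 84.99 CPM, with fresh 5 highest and fresh 3 lowest. PTGDS, a prostaglandin D synthase secreted in the duct of several mammals, stood at 66.8, 129, 80.2, 42.0 and 26.7 CPM, highest in fresh 2. The inhibitor SERPINF1 stood at 1231, 1160.0, 1030.3, 1438 and 709.9 CPM, with fresh 5 lowest, and SPINT2, a membrane-bound protease inhibitor, at 512 ± 43.9 CPM. Vesicle-associated tetraspanins were present in every library, CD63 at 758, 785, 596, 526 and 562 CPM, TSPAN8 at 682, 687, 657, 456 and 530.1 CPM and CD9 at 214 ± 26.6 CPM. Of 30 cell cycle genes 22 were detected, at summed levels of 285 to 353 CPM, with the replication factors MCM7 and PCNA at 50.7 ± 3.30 and 50.1 ± 4.12 CPM.

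The spread of a gene was taken as the SD of its log2 CPM over the 5 libraries, after scaling by the trimmed mean of M values. Over the 5846 genes with a mean of 5 log2 CPM or more, the median SD was 0.155, with 0.0596 at the 5th and 0.545 at the 95th percentile, and 50 genes (0.855%) had an SD of 1 or more. The common biological coefficient of variation from edgeR was 0.276. The gene with a symbol and a mean of 7 log2 CPM or more that had the smallest SD was CDC42, a small GTPase of the actin cytoskeleton and cell polarity, at 183, 179, 189, 174 and 179 CPM with an SD of 0.0148. VDAC2, a channel of the outer mitochondrial membrane, stood at 151, 147, 151, 146 and 145 CPM. The others of the 15 with the smallest SDs were UBE2H and ITCH of ubiquitin transfer, VCP, an ATPase of protein breakdown, the chaperonin subunit TCP1, the RNA regulators CAPRIN1 and UPF1, the vesicle coat subunits SEC24C and COPB2, and ENAH, ZC3H10, SLC30A9, PSD4 and CD164. Their SDs did not exceed 0.0363. For a gene at 100 CPM, counting error alone spans 95.4 to 104.8 CPM in the shallowest library. SDs this small are therefore close to counting error in genes near that level, and the order of the 15 is uncertain.

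Lists differed in their spread. The median SD of members with a mean of 5 log2 CPM or more, beside 0.155 over all such genes, was 0.102 for COPI, COPII and Golgi genes, 0.121 for translation factors, 0.127 for steroid receptors and enzymes, 0.141 for duct transcription regulators and 0.142 for ribosomal proteins. It was 0.409 for epididymal secretory proteins, 0.653 for extracellular matrix, 0.691 for smooth muscle, 0.784 for fibroblast markers, 0.914 for interferon-stimulated genes and 0.959 for immediate early genes. Of the 200 most variable genes, 16 were immediate early genes (of 20 that reached the level), 15 matrix genes (of 29), 12 epididymal secretory proteins (of 41), 10 fibroblast markers (of 12) and 7 interferon-stimulated genes (of 12), and lists can share members. Without fresh 4 the immediate early genes among the 200 were 9, and without fresh 2 the fibroblast markers were 6. No ribosomal protein gene (of 79), translation factor (of 49) or endoplasmic reticulum gene (of 51) was among them. Since 200 of 5846 genes were taken, few members of lists of these sizes would be there by that share alone. Genes without a symbol of their own made up 15.5% of the 200 and 3.81% of the 5846.

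**Figure D4:**
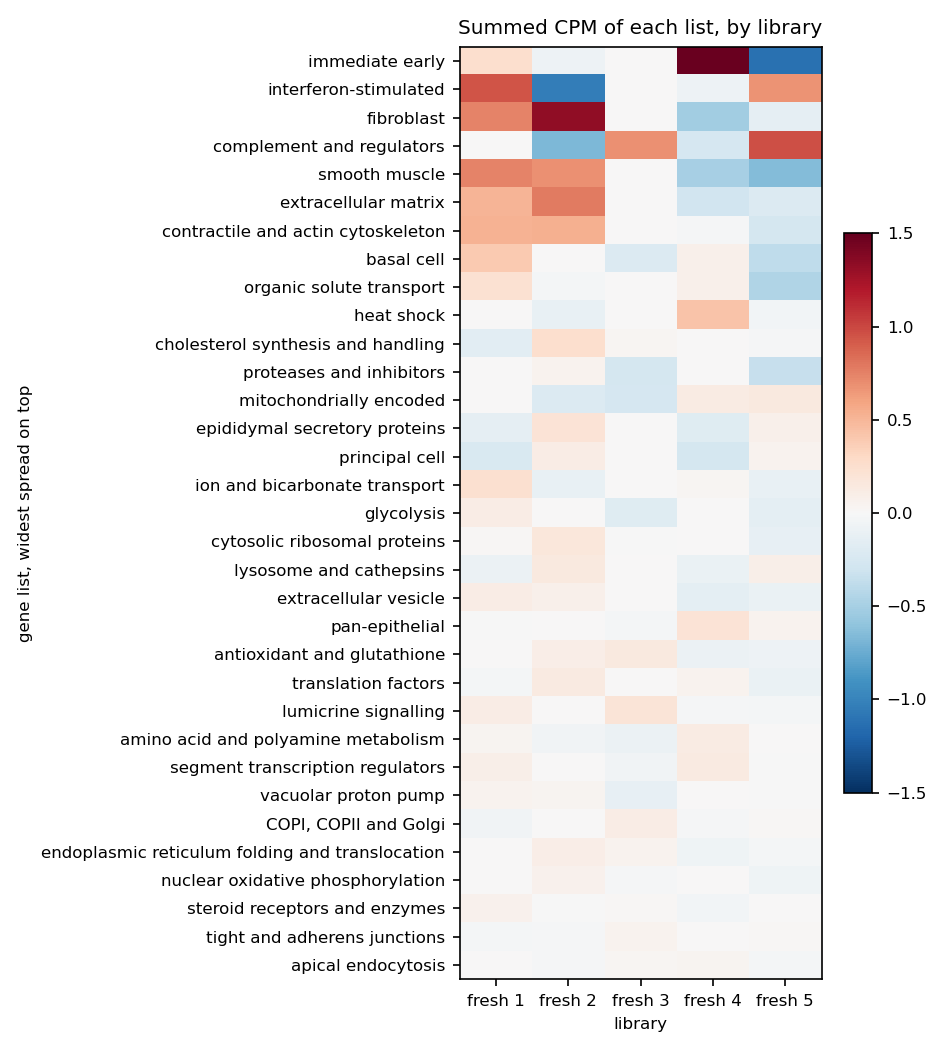
Summed CPM of each gene list in each fresh library, as the log2 difference from the median of the 5 libraries, with the widest spread on top. Red is above and blue below the median; immediate early genes are high in fresh 4, interferon-stimulated genes low in fresh 2, and fibroblast and smooth muscle genes high in fresh 1 and fresh 2.

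Immediate early genes, which cells switch on within minutes of a stimulus, set fresh 4 apart. Their summed level was 4291, 3397, 3591, 10012 and 1659 CPM, and fresh 4 was the highest library for 31 of 34 genes and fresh 5 the lowest for 26. EGR1 stood at 774, 699, 602, 1520.2 and 162 CPM, FOS at 696, 528, 567, 1359 and 215 CPM and JUN at 507, 303, 412, 1028 and 139 CPM. The transcription factor ATF3 had the largest SD of the listed genes at a mean of 5 log2 CPM or more, with 102, 31.6, 116, 661 and 12.9 CPM, or 51.2-fold between fresh 4 and fresh 5. NR4A1, a nuclear receptor induced by stress, stood at 47.2, 59.3, 66.6, 248 and 11.5 CPM. For FOS and EGR1 the other 3 libraries lay between fresh 5 and fresh 4, at 528 to 774 CPM. Without fresh 4 the median SD of the list was 0.531, still above the 0.148 of all genes without that library.

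Beside these, heat shock genes were highest in fresh 4, with a sum of 2550.2, 2360.1, 2554, 3420.3 and 2471 CPM, and for 10 of the 15 genes fresh 4 was the highest library. The median SD of the list was 0.248 with fresh 4 and 0.0958 without it. HSPA8, the constitutive heat shock protein, stood at 628, 477, 647, 1021 and 532 CPM, and DNAJB1, an inducible partner of it, at 106, 78.3, 89.3, 227 and 78.7 CPM. HSP90AB1 was nearly level, at 826, 860.3, 875, 923 and 858 CPM. Inflammatory genes were also highest in fresh 4 for 13 of 21 genes with counts, among them NFKBIA, the inhibitor of NF-kB, at 45.6, 22.2, 19.4, 88.7 and 26.2 CPM, and the endothelial adhesion molecule SELE at 4.55, 0.201, 0.323, 31.3 and 0.714 CPM. Genes at 10 CPM or more and at least 4-fold above every other library numbered 24 in fresh 4, against 4 in fresh 1, 6 in fresh 2 and 7 in fresh 5. This rule, and the genes named by it, were chosen after the values were seen. Among the 24, beside ATF3, was the transcription factor KLF4, at 31.3, 28.7, 31.4, 135 and 15.3 CPM. The interferon regulatory factor IRF1 stood at 22.9, 11.9, 18.3, 102 and 20.3 CPM and DUSP5, a phosphatase that switches off MAP kinases, at 3.46, 2.42, 2.77, 51.1 and 4.95 CPM. The small MAF factor MAFF and the growth factor HBEGF were lower, with 52.7 and 18.6 CPM in fresh 4 and at most 4.92 and 2.41 CPM elsewhere. Epithelial genes were among those highest in fresh 4 too: the stress-associated keratin KRT17 stood at 14.2, 12.6, 19.1, 82.7 and 13.3 CPM, the epithelial transcription factor ELF3 at 66.8, 68.1, 59.8, 174 and 64.8 CPM and the tight junction protein CLDN4 at 56.7, 70.9, 50.4, 176 and 67.8 CPM. For these 3 genes the other 4 libraries lay close together.

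**Figure D5:**
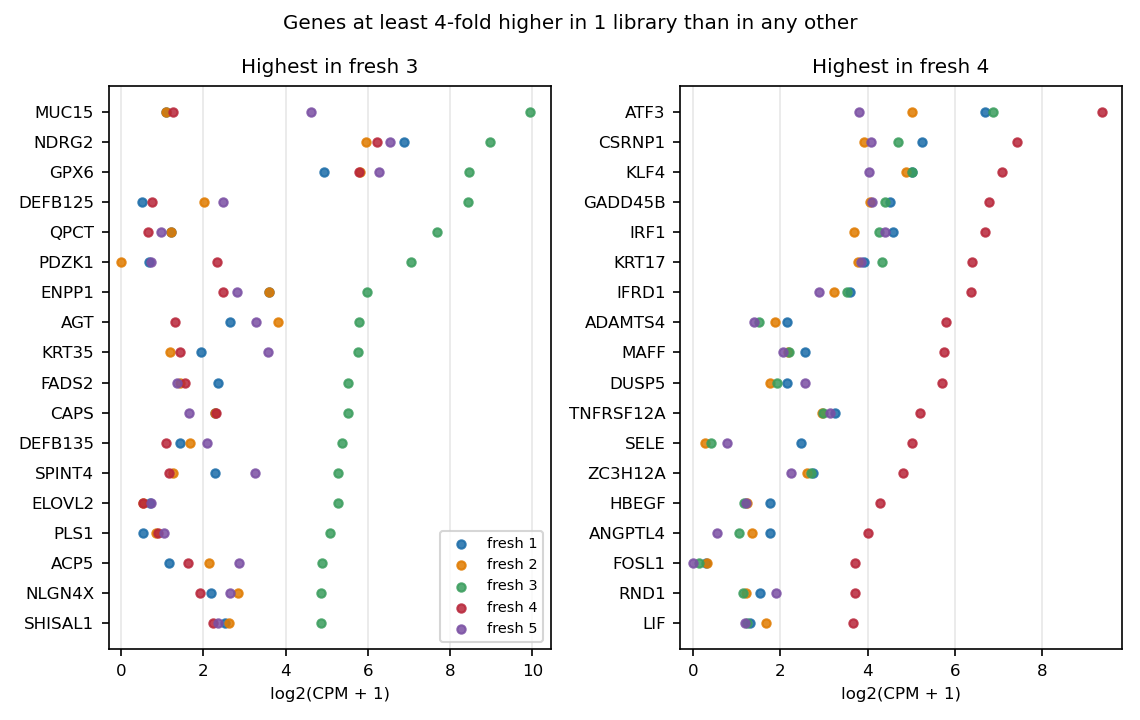
Levels, as log2(CPM + 1), of genes with a symbol that were at 10 CPM or more and at least 4-fold higher in fresh 3 (left) or in fresh 4 (right) than in any other fresh library, the first 18 by level in each. Points are libraries; on the left MUC15 reaches 988 CPM in fresh 3 against at most 23.7 CPM elsewhere, and on the right ATF3 leads.

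Fresh 3 held 46 such genes, the most of any library. They summed to 4342 CPM there and to 232.5, 215.6, 188.7 and 345.6 CPM in fresh 1, fresh 2, fresh 4 and fresh 5, and for 23 of the 46 fresh 5 was the next highest library. MUC15, a membrane mucin, stood at 1.14, 1.13, 988, 1.41 and 23.7 CPM in fresh 1 to fresh 5. DEFB125, a beta-defensin, stood at 0.410, 3.06, 345, 0.676 and 4.59 CPM, and QPCT, an enzyme that cyclises N-terminal glutamine of secreted peptides, at 1.32, 1.33, 203, 0.563 and 0.969 CPM. The scaffold protein PDZK1 stood at 0.592, 0, 132, 4.06 and 0.663 CPM. In these 4 genes fresh 3 lay more than 30-fold above the next library. LOC105260478 (protein-coding, without a symbol of its own) had 0, 0, 339, 0 and 0.918 CPM and LOC102899407 had 0, 1.17, 386, 0.113 and 35.1 CPM.

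Some secreted proteins known from the proximal duct of other mammals were among the genes highest in fresh 3. Not all were: RNASE10, given above, was nearly level across libraries. GPX5, a secreted glutathione peroxidase that guards sperm against oxidation, stood at 4.87, 14.0, 124, 26.0 and 41.6 CPM, and its relative GPX6 at 29.4, 54.7, 352, 54.1 and 76.2 CPM. Fresh 1 was the lowest library for both. The lipocalin LCN6 stood at 1.27, 2.17, 16.7, 0.620 and 4.08 CPM and LCN12 at 65.5, 64.7, 180, 60.3 and 52.9 CPM. LCN10 had 0, 0, 5.72, 0 and 0 CPM, so that all its 124 counts came from fresh 3. RNASE13 stood at 0.774, 0.403, 26.1, 1.58 and 1.17 CPM, the metalloproteinase-like ADAM28 at 0, 0.121, 11.99, 0.732 and 0.969 CPM, the inhibitor SPINT4 at 3.82, 1.41, 37.9, 1.24 and 8.47 CPM and the beta-defensin DEFB135 at 1.68, 2.21, 40.5, 1.13 and 3.21 CPM. LCN6, LCN10, RNASE13, ADAM28, SPINT4 and DEFB135 lay under 10 CPM in every other library. Of 60 epididymal secretory genes with more than 3 counts, fresh 3 was the highest library for 23, fresh 2 for 15 and fresh 5 for 13. Among 282 solute carrier genes these counts were 72, 56 and 53. Some abundant secretory genes were low in fresh 3: it was the lowest of 5 for CD52, for LTF, at 1531, 2238, 1394, 2070.0 and 2831 CPM, and for the inhibitor WFDC13, at 112, 324, 18.5, 177 and 163 CPM. The share of counts of all secretory proteins was 6.08% with and without fresh 3, and their median SD 0.409 with and 0.381 without it. Enzymes of long-chain fatty acid synthesis were in the same set, FADS2 at 4.096, 1.69, 44.9, 1.92 and 1.58 CPM and ELOVL2 at 0.637, 0.443, 37.5, 0.451 and 0.663 CPM, with the angiotensin precursor AGT at 5.23, 13.2, 54.1, 1.46 and 8.67 CPM. None of the 3 exceeded 13.2 CPM in another library.

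A further pair of genes split the libraries into fresh 3 with fresh 5 and the other 3. CLU, a secreted chaperone abundant in the duct, stood at 1797, 550.1, 4157, 1609.6 and 4929 CPM, 8.96-fold from fresh 2 to fresh 5. DKKL1, a secreted protein best known from sperm, stood at 9.88, 22.1, 151, 7.66 and 169 CPM. OVCH2, given above, followed the same order of groups. CYP11A1 did not, with fresh 2, fresh 3, fresh 4 and fresh 5 close together and fresh 1 below.

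Interferon-stimulated genes, part of the antiviral response, separated fresh 2 and fresh 1. Their sum was 2422, 617, 1264, 1198 and 2019.7 CPM; fresh 1 was the highest library for 21 of 27 genes and fresh 2 the lowest for 23. ISG15, a ubiquitin-like modifier, stood at 128, 6.28, 25.1, 31.4 and 88.6 CPM, or 20.4-fold between fresh 1 and fresh 2. BST2, which tethers budding virus, stood at 191, 10.99, 143, 99.9 and 166 CPM, and MX1, a GTPase that blocks viral replication, at 203, 23.5, 55.4, 40.2 and 156 CPM. In these 3 genes fresh 5 was next to fresh 1. The median SD of the list was 0.914, and 0.542 without fresh 2. Of the antigen presentation genes, B2M, the light chain of class I, stood at 278, 167, 199, 215 and 378 CPM and CD74, of class II, at 245, 180.3, 84.96, 159 and 343 CPM, both highest in fresh 5. The summed T and NK cell markers were highest in fresh 5 as well, and their part in these values was not tested.

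Ribosomal protein genes varied about as much as other genes of their level, with a median SD of 0.142 beside 0.155. Most of them shared their highest library, and most their lowest. Fresh 2 was the highest library for 68 of 84 and fresh 5 the lowest for 54, within a summed range of 30058 to 36674 CPM. Without fresh 2 the median SD of the list fell from 0.142 to 0.0956. Fresh 2 was also the highest library for fibroblast markers, and whether the pair of patterns is related was not tested.

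A few genes were apart in 1 library while the other 4 agreed within 1 on the log2 scale. A rule chosen after seeing the values asked for a distance of 2 or more from the median of the other 4. Among genes with a mean of 5 log2 CPM or more, 13 met it, of which 9 were below the others and 4 above. A gene high in 1 library alone more easily falls short of that mean. The split therefore does not show which direction was more common. AFAP1L1, an actin-associated adaptor, stood at 105, 54.2, 105, 2.37 and 107 CPM. Its SD of 2.33 was the largest of the genes with a symbol and a mean of 5 log2 CPM or more. PADI2, which converts arginine to citrulline in proteins, stood at 142, 132, 7.89, 117 and 118 CPM, low in fresh 3 alone. APH1B, a subunit of the gamma-secretase complex, stood at 165, 167, 143, 180.5 and 21.6 CPM, low in fresh 5 alone. SNX31, a sorting nexin, stood at 84.7, 102, 98.7, 155 and 22.5 CPM, also low in fresh 5. LOC111560781 and LOC109502616, without symbols, were low in fresh 1, at 22.9, 149, 177, 169 and 138 and 54.8, 265, 267, 259 and 196 CPM.

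Other variable genes did not meet that rule. SPINK1, a trypsin inhibitor, stood at 314, 26.8, 141, 293 and 124 CPM with fresh 2 lowest, and SYNDIG1L, a membrane protein, at 69.6, 11.03, 87.1, 37.2 and 150.2 CPM. TGFBI, a matrix protein induced by TGF-beta, stood at 128, 178, 47.4, 18.1 and 112 CPM, with fresh 4 lowest. SLC30A2, a zinc exporter, stood at 221, 227, 243, 227 and 106 CPM and was low in fresh 5, and the glucose carrier SLC5A1 at 327, 172, 153, 114 and 104 CPM was high in fresh 1. Another zinc carrier, SLC39A8, lay within 113 to 173 CPM, and the myo-inositol carrier SLC5A3 within 24.3 to 37.5 CPM.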

How the data were processed

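RNA-seq was done on fresh corpus tissue of the cat epididymis, with total RNA extracted by a Qiagen kit and TruSeq Stranded mRNA libraries, per the labels' protocols. The authors deposited raw counts per gene (38995 genes). Tools listed, without roles, in the submitters' processing notes are StringTie 2.1.3b, HISAT2 2.1.0, Trimmomatic 0.38 and Bowtie2 2.3.4.1. The build, annotation, counting program, strand setting and treatment of reads shared by gene copies were not given in the sources used here, so values of overlapping genes and of members of near-identical families are uncertain. Gene IDs were named from RefSeq (F.catus_Fca126_mat1.0), and all 38995 matched.

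From these counts CPM was computed on raw totals, and log2 CPM with TMM scaling and a prior count of 2 in edgeR 4.0.16 (R 4.3.3). The edgeR dispersion used filterByExpr (minimum count 10, minimum total 15) and an intercept-only design, and was tested on simulated data. A gene at 0 in 1 library allows up to 0.169 CPM, or 3 counts in the shallowest. Samples were grouped by the label "fresh"; no test was made, since there is 1 group.

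The lists (21 of cell types and 35 of functions, 1239 genes, with 82 names unmatched) and the part described were chosen with earlier results of these data known. Named genes were the 30 highest nuclear genes, up to 4 leading members of each list and any defining marker at 0, the 15 most and least variable with a symbol, up to 5 genes farthest from the median in each library, the 10 highest regulators and steroid genes, and 17 fixed genes. The 13 families by symbol and the rules on single libraries were added after the values were seen, as were members named outside this rule because they define a cell type or differ between libraries. Some genes of the lists are not reported here.

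Alternatives were leaving out each library, other detection thresholds, totals without mitochondrially encoded genes, TMM, relative log expression (RLE), upper-quartile and raw scaling, other level cut-offs, no filter, and ranking by the edgeR coefficient.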

Additional observations from a re-analysis of the deposited data

Results flagged for a closer look

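Of 311 values checked (genes named by the rule, list sums and library measures), 25 had 1 library far from the other 4, by the gap to the nearest library divided by the range of the 5 being above 0.71. Chance flags about 1 in 20 groups of values picked without regard to them. That rate does not apply to KLF4, NDRG2, PADI2, MBNL3, EGR3, GPX6, FOSB, NR4A1, ATF3, CSRNP1 and APH1B, which were named for their spread or their distance in 1 library. It does not apply to CAPS and KIT either, which came into the check through their level in 1 library. The ratio is given for each.

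Fresh 4 was the high library for the heat shock sum (0.817), HSPA5 (0.790), ATF3 (0.841), KLF4 (0.866), EGR3 (0.838), FOSB (0.736), NR4A1 (0.767), CSRNP1 (0.853), ICAM1 (0.781), ELF3 (0.927) and the amino acid carrier SLC38A2 (0.750), and the low library for CTNNB1 (0.779). SLC38A2 stood at 109, 93.7, 87.0, 223 and 71.6 CPM and CTNNB1, beta-catenin, at 823, 854, 828, 712 and 835 CPM.

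Fresh 3 was the high library for GPX6 (0.855), NDRG2 (0.874), CAPS (0.958) and COPB2 (0.715), and the low one for PADI2 (0.814) and for the share of counts in the 10 highest genes (0.806), which was 10.6% there and 12.6 to 13.1% elsewhere. NDRG2 stood at 116, 60.9, 500.0, 74.1 and 92.0 CPM and CAPS, listed as a ciliated cell marker, at 3.82, 3.82, 44.5, 3.94 and 2.14 CPM.

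Fresh 1 was high for KDR (0.777) and DST (0.719) and low for MBNL3 (0.840), an RNA splicing regulator at 47.7, 144, 129.8, 137 and 145 CPM. Fresh 2 was high for KIT (0.813), at 0.637, 18.9, 1.71, 4.06 and 1.79 CPM. Fresh 5 was high for LAMP2 (0.803) and low for SLC30A2 (0.839) and APH1B (0.765).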

How the results depend on the processing

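Depth limits genes near 1 CPM, where counting error alone spans 0.641 to 1.60 CPM. The planned ranking per coding length and the sequence features of the highest genes were not run, because no lengths or sequences of the files' build were used here. No paired analysis was possible because 1 group was described and no test was made.

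Leaving out 1 of 5 libraries cannot move a mean by as much as their SD, so those values were judged by size. None of the 83 such values of the 17 main results moved by over 1.5 times. Of 2415 for single genes and lists, 105 did, 50 of them without fresh 3 and 29 without fresh 4. Without mitochondrially encoded genes in the total, the 10, 100 and 1000 highest genes took 9.28, 22.9 and 50.8% of counts, 958.8 genes held 50%, and secretory, ribosomal protein, translation factor and endoplasmic reticulum genes took 6.76, 3.67, 2.29 and 3.12%. At 5 CPM, 108 cell type markers were detected, against 164 at 1 CPM. Genes with an SD of 1 or more numbered 158 at a mean of 3 log2 CPM or more and 16 at 7 or more, and 69 and 40 of the 200 most variable were shared. Asking for 8-fold in place of 4-fold left 25 genes in fresh 3 and 4 in fresh 4, and asking for 20 CPM left 29 in fresh 3. With another library left out these counts were 47 to 59 and 25 to 33. For lists other than these, 18 of 30 shares of counts moved by more than 1 SD without mitochondrially encoded genes, and none of 453 gene and list levels did under TMM scaling. The immediate early genes among the 200 most variable numbered 16, and 9 to 16 with 1 library left out.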

Other observations

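Some genes without a symbol of their own were among the most variable. LOC101098498, a protein-coding gene, stood at 55.1, 238, 1543, 2342 and 1162 CPM and had the second largest SD of all 5846 genes, 2.26. LOC101086846 stood at 853, 577, 1041, 141 and 677 CPM, low in fresh 4. A pseudogene, LOC101085590, stood at 2.46, 2.46, 1.80, 1.41 and 111 CPM, so that fresh 5 held nearly all of it, and the beta-defensin DEFB115 at 2.05, 0.322, 0.923, 1.63 and 51.5 CPM likewise. In fresh 1, the cytokine receptor gene TNFRSF8 stood at 33.3, 0.886, 0.138, 0 and 0 CPM and PIGR, which carries antibodies across epithelium, at 23.3, 3.02, 0.600, 3.55 and 0.408 CPM. In fresh 2, USH1C, a scaffold of microvilli, stood at 1.55, 23.4, 0, 2.14 and 3.11 CPM and the sugar-cleaving enzyme TREH at 4.51, 21.7, 4.15, 1.63 and 2.296 CPM. These genes were chosen after their values were seen.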
